A study of Mus musculus with 13 samples.

Results

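The genes described here are 35 mouse genes of the NF-kB pathway, taken by gene symbol out of 55421 genes listed in bulk RNA-seq tables of bone marrow hematopoietic stem and progenitor cells (HSPCs). They were ordered by role into 5 subunits, 6 IkB inhibitors, 4 other feedback inhibitors, 7 adaptors and kinases, 6 survival and stress protection genes and 7 other targets. The 10 libraries fall into 4 genotypes by label. Wild type and Setd2 knockout have 2 libraries each. Srsf2 mutated, and the combination of both changes, here called double mutant, have 3 each. SETD2 is a histone H3 lysine methyltransferase, and SRSF2 is a splicing factor that is recurrently mutated in myelodysplastic syndrome, a clonal blood disorder. For the 3 single-cell samples of the series, not analysed here, the labels give Lin- c-Kit+ cells of Mx1-Cre+ mice, with Srsf2 P95H/+ alone or together with Setd2 fl/fl. They were taken 4 weeks post pIpC in a bone marrow transplant model. Mx1-Cre is driven by an interferon-inducible promoter, pIpC is the agent that induces it, and a transplanted host can retain blood cells of its own. Whether the bulk libraries share that sort, Cre, transplant and time is not stated. Nothing says that replicates came from separate mice, so p-values may measure only technical spread.

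NF-kB is a family of transcription factors that act as dimers of RelA, RelB, c-Rel and the products of Nfkb1 and Nfkb2. IkB proteins hold the dimers in the cytoplasm until signals from receptors such as those for TNF and IL-1 lead IkB kinases to mark them for destruction. The freed dimers then switch on genes of inflammation and survival, and among these targets are the genes of several of their own inhibitors, so that a rise of the pathway is followed by a brake. In bone marrow progenitors the pathway is known for its part in emergency blood formation and in inflammation that accompanies myeloid disease.

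To show what these genes carry in front of their start, the stretch upstream of the start was read for 28 of the 35 members from RefSeq promoter windows (build GRCm38.p6), each 250 bases before to 50 after the start. The motif searched was the NF-kB consensus of 10 bases, on both strands, and overlapping matches were counted as 1 place. It occurred in 12 of the 28 members with a window (42.9%), and in 2581 of 27025 genes with a window (9.55%) or 2779 of all 32851 windows (8.46%). The sequences of 8 members with a match are shown, 5′ to 3′ on the gene's strand with the matches in capitals. Of these, 7 had more RNA in the Srsf2 mutated libraries than in wild type and 1 (Tnip1) had less, by the test explained below. The members Bcl3, Nfkbid, Sod2 and Tnfaip2 also have a match and are not shown. Over all 12 with a match, 9 were called higher and 2 lower. Of the 15 tested members without one, 11 were called higher and 2 lower, and 28.5% of all tested genes were called higher. A match is a description of these letters and not evidence of a binding site. Where an annotated exon reaches into the stretch, 30 bases around a match are shown.
Nfkbia, chr12:55492649-55492797, minus strand: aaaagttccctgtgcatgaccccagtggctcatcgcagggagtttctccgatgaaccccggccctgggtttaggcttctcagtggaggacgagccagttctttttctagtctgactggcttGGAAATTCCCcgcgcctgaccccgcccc
Nfkbie, chr17:45555550-45555698, plus strand: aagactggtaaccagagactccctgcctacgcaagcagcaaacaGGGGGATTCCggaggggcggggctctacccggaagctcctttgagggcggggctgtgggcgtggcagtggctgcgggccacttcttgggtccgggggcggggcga
Rel, chr11:23770971-23771119, minus strand: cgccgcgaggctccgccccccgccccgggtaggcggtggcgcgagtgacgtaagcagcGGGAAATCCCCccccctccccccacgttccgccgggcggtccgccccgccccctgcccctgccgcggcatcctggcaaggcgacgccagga
Irf1, chr11:53769864-53770012, plus strand: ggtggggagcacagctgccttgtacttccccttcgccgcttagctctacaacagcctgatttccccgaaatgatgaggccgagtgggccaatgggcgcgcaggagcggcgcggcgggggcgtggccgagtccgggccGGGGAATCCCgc
Tnip1, chr11:54962942-54963090, minus strand: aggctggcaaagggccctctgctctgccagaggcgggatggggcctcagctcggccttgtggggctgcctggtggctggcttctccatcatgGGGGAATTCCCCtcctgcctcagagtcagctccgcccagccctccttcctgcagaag
Tnfaip3, chr10:19015403-19015432, minus strand: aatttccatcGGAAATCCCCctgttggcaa
Nfkb2, chr19:46304716-46304745, plus strand: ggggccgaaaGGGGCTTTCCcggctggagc
Ier3, chr17:35821611-35821640, plus strand: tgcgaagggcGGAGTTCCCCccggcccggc
No window was held for Relb, Nfkb1, Nfkbiz, Ripk2, Map3k8, Cd83 and Ier2.

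Total counts ranged from 32117387 to 50445434 per library. Each group's libraries lay together on the first principal component (52.8% of the variance). Srsf2 mutated replicate 3 stood apart from the others of its group on the second (75.5 against 36.9 and 42.5). Levels are given as CPM (counts over TMM-scaled library totals, times 1e6) and, where genes are compared with each other, as the deposited FPKM, which is per length. A difference is a log2 fold change (log2 fold) with its standard error (SE) from 1 edgeR quasi-likelihood fit over all 10 libraries, and a gene was called at a Benjamini-Hochberg adjusted p under 0.05 over the 19289 tested genes. Setd2 itself was at 159 and 145 CPM in wild type and 231 and 213 CPM in the libraries labelled Setd2 knockout. It was at 213, 221 and 157 CPM in Srsf2 mutated and 131, 129.6 and 130.2 CPM in the double mutant. Its RNA was thus higher under the knockout label (log2 fold 0.55 ± 0.121 SE, adjusted p = 0.00204), which goes against that label, although gene-level counts can miss a deleted exon. Every direction drawn from those libraries carries this doubt. Srsf2 lay between 219 and 325 CPM in all libraries, and gene counts do not show a point mutation. Xist was at 499 and 472 CPM in wild type and at most 7.94 CPM elsewhere, while the Y-linked Ddx3y was at 0 in wild type and in the libraries labelled Setd2 knockout and at 104 to 128 CPM in both other groups. Comparisons of the Srsf2 mutated or double mutant libraries with the other 2 groups are therefore confounded with Y-linked RNA. What belongs to the genotype and what to that RNA or the sex of the mice cannot be told apart there. Xist separates wild type from every other group in the same way. The libraries labelled Setd2 knockout had low Xist and no Ddx3y RNA, so these genes do not give their sex, a further doubt about that label. The double mutant and Srsf2 mutated libraries were alike in both RNAs.

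The HSPC markers summed to 19937 to 20600 CPM in wild type, 12173 to 12882 under the knockout label, 7371 to 8312 in Srsf2 mutated and 5814 to 5957 in the double mutant, with 0 of 16 markers at 0 in all libraries. Such a sum weighs the most abundant genes most. The 16 include the granule genes Mpo and Elane beside genes such as Kit, so the sum does not measure stem cells alone. Under the knockout label 6 of the 16 were called lower than in wild type and 4 higher, with a median log2 fold change of -0.21. Of all tested genes 19.9% were called lower there and 18.7% higher. In Srsf2 mutated 11 were called lower than in wild type and 2 higher, with a median of -0.78. The shares of all tested genes there were 27.8% lower and 28.5% higher. Markers of late neutrophils (14 genes such as Retnlg and Mmp8) summed to 18585 to 25831, 6804 to 7383, 16071 to 19699 and 37003 to 37828 CPM in the same order of groups. Erythroid markers (15 measured) summed to 872 to 953, 2498 to 2524, 6428 to 8196 and 22249 to 23775 CPM. B lymphoid markers (12 genes) summed to 507 to 512, 380 to 383, 1822 to 1987 and 1691 to 1704 CPM. Monocyte and macrophage markers (15 genes) gave 1914 to 1931, 1253 to 1365, 1328 to 1463 and 1719 to 1830 CPM. Although this sum was lower in Srsf2 mutated than in wild type, 10 of the 15 were called higher there and 2 lower, with a median log2 fold change of 0.60. Mast cell and basophil markers (12 genes) gave 627 to 653, 486 to 498, 1305 to 1498 and 865 to 874 CPM. No marker of these lists was at 0 in all libraries. The cell mixture thus differed between the genotypes in RNA terms, and its part in the NF-kB results was not tested. In bulk samples fewer cells of a type and less RNA per cell cannot be told apart.

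Most of the NF-kB genes were higher in the Srsf2 mutated libraries than in wild type, with the IkB inhibitors and c-Rel among them, while Rela did not pass the test and Nfkb1 was slightly lower. Of the 34 members that were tested, 26 were called higher and 5 lower in Srsf2 mutated against wild type, where 28.5% of all tested genes were called higher and 27.8% lower. The members' median log2 fold change was 1.26, beside 0.08 over all tested genes. At a bound of 2-fold or more, 19 of 34 members were called higher, against 18.8% of all tested genes. Each of the 34 stood above the filter's limit of 0.226 CPM in all 10 libraries, so none entered only through the group where it was high. The member left out, Bcl2a1b, had 0 to 6 counts per library.

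Among the 5 subunits, 3 were called higher and 1 lower in Srsf2 mutated against wild type. Rel encodes c-Rel, the subunit tied to lymphoid and inducible programmes, and lay at 35.4 and 31.9 CPM in wild type and 34.9 and 28.9 CPM under the knockout label. It reached 228, 244 and 196 CPM in Srsf2 mutated and 224, 211 and 229 CPM in the double mutant. The Srsf2 mutated and double mutant libraries overlapped with each other and were far above the other 2 groups (log2 fold 2.73 ± 0.109 SE, adjusted p = 1.07e-11 against wild type). Relb encodes the partner of p52 in the noncanonical arm and was at 5.67 and 5.67 CPM in wild type and 3.11 and 3.26 CPM under the knockout label. It was at 28.4, 26.7 and 26.5 CPM in Srsf2 mutated and 27.1, 26.7 and 27.8 CPM in the double mutant. It rose 4.8-fold in Srsf2 mutated (log2 fold 2.26 ± 0.106 SE, adjusted p = 6.69e-11). Nfkb2, the gene of the p100 precursor of p52, was at 31.6 and 35.4 CPM in wild type and 23.7 and 24.9 CPM under the knockout label. In Srsf2 mutated libraries it stood at 106, 116 and 86.9 CPM, and in the double mutant at 102, 96.3 and 93.5 CPM. Its rise was 3.08-fold (log2 fold 1.62 ± 0.11 SE, adjusted p = 5.48e-09). About 11.6% of its exon length is shared with a gene on the opposite strand, and since strandedness is not stated the reads of both cannot be told apart.

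The subunits of the classical dimer did not follow. Rela encodes p65 and was at 139.6 and 136 CPM in wild type and 118 and 121 CPM under the knockout label. The Srsf2 mutated libraries had 139.7, 141 and 142 CPM and the double mutant ones 145, 154 and 150.3 CPM. Srsf2 mutated and wild type differed by a log2 fold change of 0.03 with a 95% interval of -0.09 to 0.16 (adjusted p = 0.691). Nfkb1, the gene of p105 and p50, was at 272 and 262 CPM in wild type and 205 and 201 CPM under the knockout label. Its level in Srsf2 mutated was 242, 244 and 226 CPM, and in the double mutant 223, 230.1 and 231 CPM. It was called lower in Srsf2 mutated (log2 fold -0.17 ± 0.0645 SE, adjusted p = 0.0339), a call that ended under 8 alternatives, for example with upper-quartile scaling (-0.07, adjusted p = 0.37). The call was also lost without wild type replicate 1 or Srsf2 mutated replicate 1 (-0.18 to -0.15, adjusted p of 0.0638 to 0.14). Per length Rela remained the more abundant of Rela and Rel, at 42.1 ± 0.928 FPKM against 4.23 ± 0.33 FPKM in wild type (SD, n = 2) and 47.2 ± 0.857 against 30.7 ± 3.92 FPKM in Srsf2 mutated (SD, n = 3).

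Between the double mutant and Srsf2 mutated, 0 of the 5 subunits were called by edgeR, with 0 at an unadjusted p under 0.05 and 0 called by DESeq2, and the log2 fold change lay between -0.09 and 0.09. Without Srsf2 mutated replicate 3, which stood apart, Nfkb2 was called lower (-0.19, adjusted p = 0.0341). Across all members, 12 of 34 were called higher and 4 lower in that comparison, where 17.8% of all tested genes were called higher and 15.9% lower, and the members' median was 0.08 beside 0.00 over all tested genes. The interval for Rel was -0.18 to 0.16 and that for Relb -0.16 to 0.16 on the log2 scale.

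**Figure D1:**
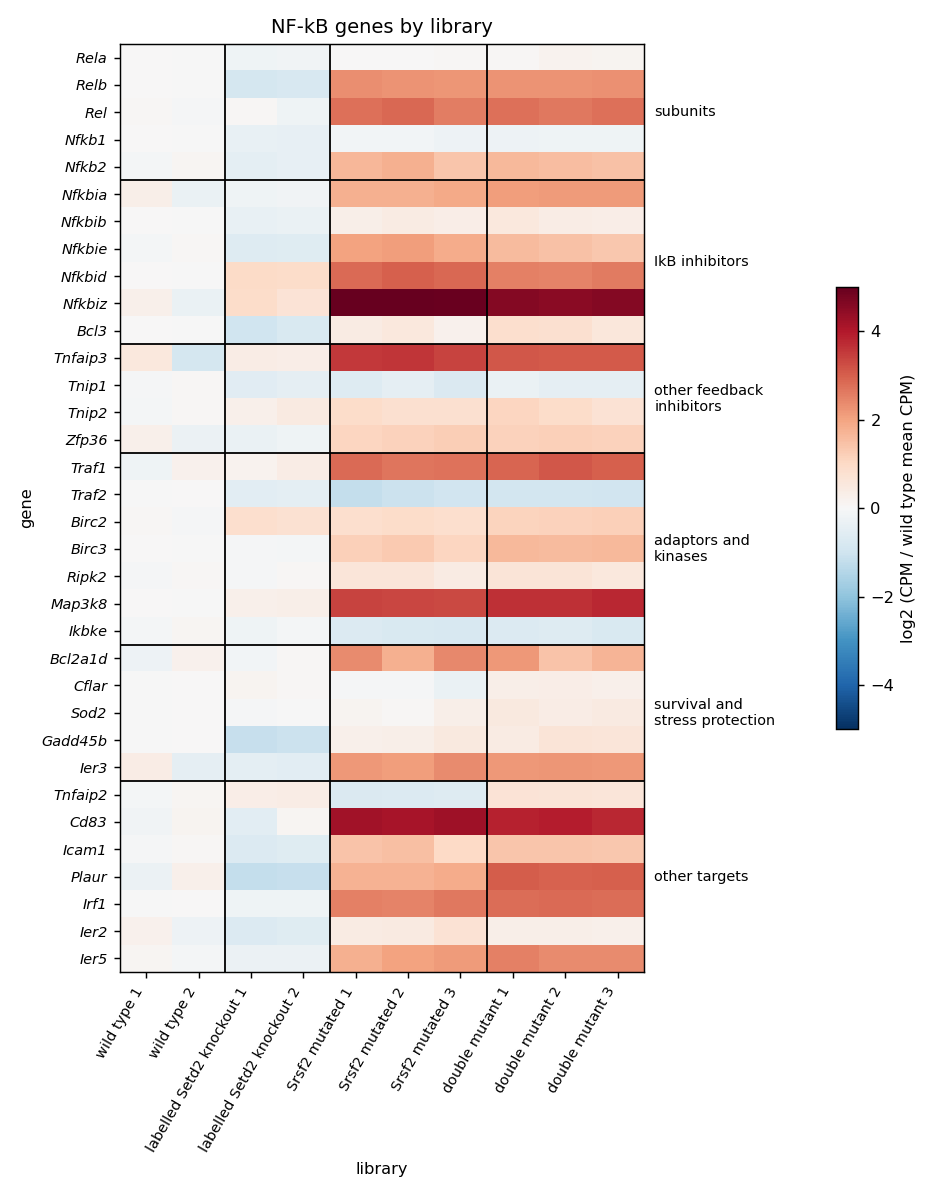
Level of the 34 tested NF-kB genes in each library (columns, by genotype) as log2 of CPM over the wild type mean CPM of the gene (colour, red higher, blue lower), with genes in rows grouped by role. The Srsf2 mutated and double mutant columns are mostly red, most deeply for Nfkbiz, Cd83, Tnfaip3 and Map3k8, while Traf2, Ikbke and Tnip1 are blue.

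All 6 IkB inhibitors were called higher in Srsf2 mutated than in wild type, by 0.34 to 5.02 on the log2 scale. Nfkbia encodes IkBa, the inhibitor that NF-kB restores first after activation, and was at 146 and 95.2 CPM in wild type and 103 and 107 under the knockout label. It was at 411, 412 and 447 CPM in Srsf2 mutated and 514, 528 and 523 in the double mutant. The 4 groups formed a low pair and a high pair without overlap between the pairs, with a 3.52-fold rise in Srsf2 mutated (log2 fold 1.81 ± 0.127 SE, adjusted p = 8.1e-09). Its further rise in the double mutant (log2 fold 0.30 ± 0.106 SE, adjusted p = 0.0374) lost the call when either Srsf2 mutated replicate 1 or 2, or any double mutant replicate, was left out (0.24 to 0.31, adjusted p of 0.0781 to 0.171), and with upper-quartile scaling (0.25, adjusted p = 0.0807).

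Nfkbiz encodes IkB-zeta, a nuclear IkB protein that works with NF-kB at secondary response genes such as Il6. It was at 19.5 and 13.1 CPM in wild type and 30.7 and 25.98 CPM under the knockout label. With the Srsf2 mutation it measured 539.9, 553 and 497 CPM, and in the double mutant 392, 369 and 390 CPM. At 32.5-fold it had the greatest difference of the 34 members between Srsf2 mutated and wild type (log2 fold 5.02 ± 0.148 SE, adjusted p = 3.04e-13), and it was then lower in the double mutant than in Srsf2 mutated (log2 fold -0.47 ± 0.102 SE, adjusted p = 0.00204). Nfkbid, the gene of IkB-NS, another nuclear IkB, was at 16.7 and 16.3 CPM in wild type and 32.2 and 31.1 CPM under the knockout label. Srsf2 mutated replicates gave 118, 131 and 119.7 CPM, and double mutant replicates 93.5, 92.6 and 98.5 CPM. It followed the same order of groups, rising 7.45-fold in Srsf2 mutated (log2 fold 2.90 ± 0.0845 SE, adjusted p = 2.96e-13) and being lower in the double mutant (log2 fold -0.37 ± 0.0653 SE, adjusted p = 0.00032). Nfkbie, the gene of IkB-epsilon, was at 18.6 and 20.8 CPM in wild type and 12.6 and 13.01 CPM under the knockout label. It was at 78.4, 83.8 and 71.1 CPM in Srsf2 mutated and 59.6, 54.98 and 49.96 CPM in the double mutant. It rose 3.95-fold in Srsf2 mutated (log2 fold 1.98 ± 0.104 SE, adjusted p = 2.86e-10) and was 1.42 times lower in the double mutant (log2 fold -0.50 ± 0.0854 SE, adjusted p = 0.000223).

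The remaining IkB genes moved less. Bcl3 encodes a nuclear IkB that pairs with p50 and p52, and was at 16.9 and 16.6 CPM in wild type and 8.32 and 9.797 CPM under the knockout label. In Srsf2 mutated libraries it stood at 22.2, 23.9 and 19.3 CPM, and in the double mutant at 30.2, 29.5 and 24.6 CPM. Its rise in Srsf2 mutated was small (log2 fold 0.38 ± 0.122 SE, adjusted p = 0.0146) and was lost without either wild type library or without Srsf2 mutated replicate 2 (0.31 to 0.39, adjusted p of 0.0507 to 0.0806). Nfkbib, the gene of IkB-beta, was higher in Srsf2 mutated than in wild type (log2 fold 0.34 ± 0.0856 SE, adjusted p = 0.00344), and 14.5% of its exon length lies opposite another gene, Ccer2. In sum, the genes grouped as IkB inhibitors reached 203 to 260 CPM in wild type, 218 to 220 under the knockout label, 1206 to 1259 in Srsf2 mutated and 1129 to 1150 in the double mutant. Nfkbiz, whose product works with NF-kB as described above, gave 497 to 553 CPM of this in Srsf2 mutated. It gave 369 to 392 CPM in the double mutant. The sum is therefore not a measure of inhibition alone.

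Of the 4 other feedback inhibitors, 3 were called higher and 1 lower in Srsf2 mutated than in wild type. Tnfaip3 encodes A20, a ubiquitin-editing enzyme that shuts off signalling to the IkB kinases, and was at 81.02 and 30.8 CPM in wild type and 71.98 and 70.7 under the knockout label. It was at 640.2, 664 and 578 CPM in Srsf2 mutated and 477, 474 and 468 in the double mutant. The rise in Srsf2 mutated was 11.2-fold (log2 fold 3.49 ± 0.267 SE, adjusted p = 2.3e-08) although the 2 wild type libraries themselves differed 2.63-fold. Without wild type replicate 1 the rise was 20.3-fold (log2 fold 4.34, adjusted p = 1e-12), and without replicate 2 the log2 fold was 2.95. All 3 double mutant libraries were below all 3 Srsf2 mutated ones, which did not pass the test in the common fit (log2 fold -0.41 ± 0.203 SE, adjusted p = 0.142) and did when only those 2 groups were fitted (-0.41, adjusted p = 0.000229).

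Its binding partners did not share this size of change. Tnip1, the gene of an A20-binding protein, was at 77.2 and 81.7 CPM in wild type and 54.2 and 58.2 CPM under the knockout label. The Srsf2 mutated libraries had 50.9, 58.6 and 47.96 CPM and the double mutant ones 62.4, 58.1 and 58.4 CPM. It was lower in Srsf2 mutated than in wild type (log2 fold -0.60 ± 0.0878 SE, adjusted p = 2.81e-05), and its upstream stretch, printed with the others, holds a match too. Tnip2, another A20-binding protein, was higher (log2 fold 0.84 ± 0.115 SE, adjusted p = 1.43e-05). Zfp36 encodes tristetraprolin, which destabilises cytokine mRNAs, and was at 431 and 297 CPM in wild type and 288 and 313 CPM under the knockout label. Its level in Srsf2 mutated was 766, 817 and 854 CPM, and in the double mutant 817, 823 and 799 CPM. It rose 2.23-fold in Srsf2 mutated (log2 fold 1.16 ± 0.115 SE, adjusted p = 4.43e-07) and the double mutant overlapped with Srsf2 mutated.

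**Figure D2:**
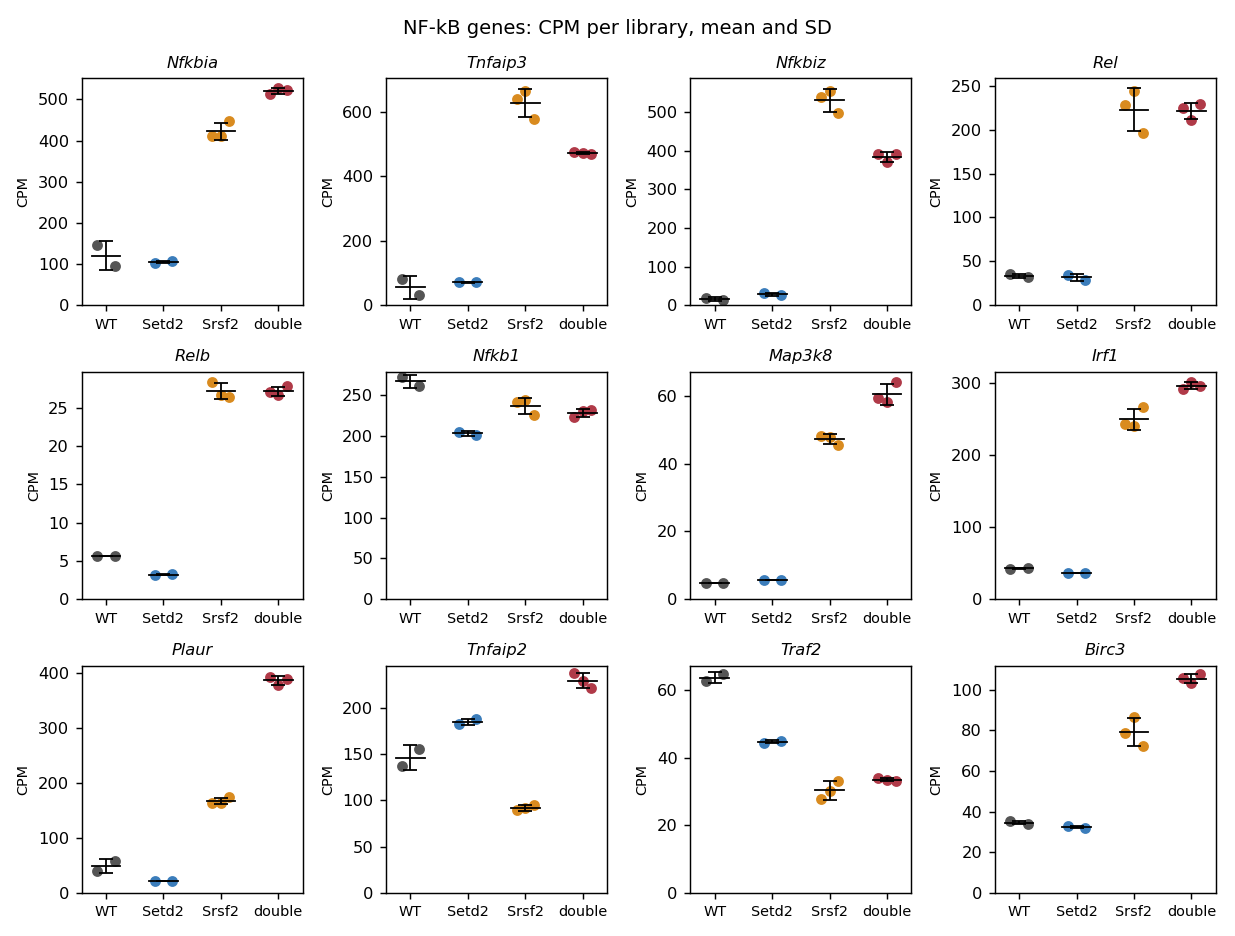
Level in CPM (vertical axes, each starting at 0) of 12 NF-kB genes in every library of wild type (WT), labelled Setd2 knockout (Setd2), Srsf2 mutated (Srsf2) and double mutant (double); points are libraries, horizontal lines means and bars SD (n = 2, 2, 3 and 3). Plaur steps up again from 163 to 174 CPM in Srsf2 mutated to 378 to 392 CPM in the double mutant, whereas Rel and Relb stay level between these 2 groups.

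Of the 7 adaptors and kinases, 5 were called higher and 2 lower in Srsf2 mutated than in wild type. Map3k8 encodes TPL2, a kinase released from p105 that feeds the ERK pathway, and was at 4.73 and 4.63 CPM in wild type and 5.62 and 5.69 CPM under the knockout label. With the Srsf2 mutation it measured 48.3, 47.9 and 45.7 CPM, and in the double mutant 59.4, 58.2 and 64.1 CPM. It rose 10.1-fold in Srsf2 mutated (log2 fold 3.34 ± 0.0997 SE, adjusted p = 3.4e-13) and was higher again in the double mutant (log2 fold 0.36 ± 0.0721 SE, adjusted p = 0.00105). Traf1, an adaptor of TNF receptors that NF-kB itself induces, was low in every library, at 0.894 and 1.2 CPM in wild type and 1.17 and 1.35 CPM under the knockout label. Srsf2 mutated replicates gave 7.37, 6.66 and 6.91 CPM, and double mutant replicates 7.92, 8.97 and 8.21 CPM. Its fold was 6.65 (log2 fold 2.73 ± 0.2 SE, adjusted p = 1.32e-08). Traf2, the adaptor that brings the ubiquitin ligases to those receptors, went the other way, at 62.7 and 64.9 CPM in wild type and 44.5 and 45.1 CPM under the knockout label. It was at 27.7, 30.2 and 33.3 CPM in Srsf2 mutated and 34.1, 33.4 and 33.1 CPM in the double mutant. It was 2.1 times lower in Srsf2 mutated (log2 fold -1.07 ± 0.0849 SE, adjusted p = 3.41e-08), the greatest fall among the members. Ikbke, the gene of an IkB kinase-related kinase, was lower too (log2 fold -0.76 ± 0.0796 SE, adjusted p = 7.67e-07).

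The ubiquitin ligases cIAP1 and cIAP2, encoded by Birc2 and Birc3, were both higher in Srsf2 mutated and higher again in the double mutant. Birc3 was at 35.2 and 34.1 CPM in wild type and 32.9 and 32.2 CPM under the knockout label. In Srsf2 mutated libraries it stood at 78.7, 86.5 and 72.5 CPM, and in the double mutant at 106, 103 and 108 CPM (log2 fold 1.19 ± 0.0841 SE, adjusted p = 8.68e-09 in Srsf2 mutated against wild type, and log2 fold 0.41 ± 0.0714 SE, adjusted p = 0.000268 in the double mutant against Srsf2 mutated). Birc2 lay at 34.9 and 31.9 CPM in wild type and 59.1 and 56.2 CPM under the knockout label. The Srsf2 mutated libraries had 60, 63.6 and 60.5 CPM and the double mutant ones 73.02, 74.8 and 75.8 CPM. The libraries labelled Setd2 knockout stood just below the Srsf2 mutated ones and far above wild type in Birc2. Ripk2, the kinase downstream of NOD receptors, was slightly higher in Srsf2 mutated than in wild type (log2 fold 0.55 ± 0.116 SE, adjusted p = 0.000825).

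Of the 5 tested survival and stress protection genes, 3 were called higher in Srsf2 mutated than in wild type. Ier3, an early response gene that modulates cell death, was at 57.6 and 32.7 CPM in wild type and 31.9 and 31.3 CPM under the knockout label. Its level in Srsf2 mutated was 204, 195 and 231 CPM, and in the double mutant 204, 209 and 205 CPM (log2 fold 2.22 ± 0.164 SE, adjusted p = 1.52e-08). Bcl2a1d, an antiapoptotic BCL2 relative, was at 0.635 and 0.8703 CPM in wild type and 3.88, 2.603 and 3.97 in Srsf2 mutated (log2 fold 2.20 ± 0.331 SE, adjusted p = 3.58e-05), and since it has near-identical copies such as Bcl2a1b, the split of reads among them is uncertain. Gadd45b, a stress sensor that dampens JNK signalling, was at 42.7 and 43.1 CPM in wild type and 19.4 and 20.3 CPM under the knockout label. With the Srsf2 mutation it measured 51.1, 52.6 and 59.8 CPM, and in the double mutant 57.7, 67.5 and 65.3 CPM. The libraries labelled Setd2 knockout were the low group for Gadd45b, at less than those of every other genotype. Cflar, the gene of the caspase-8 regulator c-FLIP, and Sod2, the mitochondrial superoxide dismutase, did not pass the test in Srsf2 mutated against wild type (log2 fold -0.14 ± 0.0828 SE, adjusted p = 0.158 and log2 fold 0.16 ± 0.077 SE, adjusted p = 0.0912). Sod2 was called higher there under 5 of 12 alternatives, DESeq2 among them (0.19 to 0.26, adjusted p of 0.00619 to 0.0479 over the 5). Both were higher in the double mutant than in Srsf2 mutated (log2 fold 0.45 ± 0.0743 SE, adjusted p = 0.000195 for Cflar and log2 fold 0.28 ± 0.0684 SE, adjusted p = 0.00468 for Sod2).

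Of the 7 other targets, 6 were called higher and 1 lower in Srsf2 mutated than in wild type. Cd83, an activation marker of B cells and dendritic cells, was low, at 1.29 and 1.599 CPM in wild type and 1.02 and 1.55 under the knockout label, and at 26.3, 25.1 and 27.7 CPM in Srsf2 mutated and 20.7, 21.9 and 19.8 in the double mutant. Its fold was 18.2 (log2 fold 4.18 ± 0.167 SE, adjusted p = 1.01e-11), and B lymphoid markers moved with it, 12 of 12 being called higher in Srsf2 mutated and 10 of 12 lower in the double mutant against Srsf2 mutated. Of the dendritic markers, 7 of 12 were called higher and 2 lower in Srsf2 mutated. The part of these cells in the Cd83 result was not tested. Irf1, a transcription factor shared by interferon and NF-kB signalling, was at 42.2 and 42.7 CPM in wild type and 36.4 and 36.1 CPM under the knockout label. Srsf2 mutated replicates gave 243, 239.8 and 266 CPM, and double mutant replicates 292, 302 and 296 CPM (log2 fold 2.55 ± 0.075 SE, adjusted p = 3.04e-13). Icam1, an adhesion molecule, was higher (log2 fold 1.33 ± 0.124 SE, adjusted p = 2.13e-07), with 11.7% of its exon length opposite another gene. Ier5, another early response gene, was higher as well (log2 fold 1.99 ± 0.101 SE, adjusted p = 1.79e-10). Ier2, an immediate early gene itself, was at 451 and 319 CPM in wild type and 242 and 253 CPM under the knockout label. It was at 511, 519 and 641 CPM in Srsf2 mutated and 470.2, 468 and 456 CPM in the double mutant, a small rise in Srsf2 mutated (log2 fold 0.53 ± 0.121 SE, adjusted p = 0.00142). Its size moved with the wild type library kept, to 0.80 without replicate 1 (adjusted p = 4.01e-05) and 0.30 without replicate 2 (adjusted p = 0.0362).

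Plaur and Tnfaip2 changed most in the double mutant. Plaur encodes the urokinase receptor of myeloid cells and was at 39.5 and 57.4 CPM in wild type and 21.3 and 21.7 CPM under the knockout label. In Srsf2 mutated libraries it stood at 163, 164 and 174 CPM, and in the double mutant at 392, 378 and 389.8 CPM. It rose 2.32-fold from Srsf2 mutated to the double mutant (log2 fold 1.21 ± 0.0965 SE, adjusted p = 6.26e-08) with no overlap. Tnfaip2, a TNF-induced gene, was at 137 and 156 CPM in wild type and 182 and 187 CPM under the knockout label. The Srsf2 mutated libraries had 89.1, 91.2 and 94.6 CPM and the double mutant ones 238, 229 and 221 CPM. It was lower in Srsf2 mutated than in wild type (log2 fold -0.67 ± 0.0717 SE, adjusted p = 9.66e-07) and 2.5 times higher in the double mutant than in Srsf2 mutated (log2 fold 1.32 ± 0.0657 SE, adjusted p = 2.45e-10), the only member called in opposite directions in this way. In that comparison 14 of 14 late neutrophil markers and 8 of 15 monocyte and macrophage markers were called higher too, and their part in the Plaur and Tnfaip2 results was not tested.

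Sorted by both calls, 9 of the 26 members that were higher in Srsf2 mutated than in wild type were higher again in the double mutant against Srsf2 mutated (Bcl3, Birc2, Birc3, Gadd45b, Ier5, Irf1, Map3k8, Nfkbia and Plaur). A further 4 were lower there (Cd83, Nfkbid, Nfkbie and Nfkbiz), and 13 were not called. Over all tested genes 17.8% were called higher and 15.9% lower in that comparison, so the 4 lower calls are near that share. Some of the smaller calls in the double mutant lay near the threshold and ended when 1 library was left out. That of Bcl3 was lost (0.31 to 0.33, adjusted p of 0.0616 to 0.0783 without Srsf2 mutated replicate 1 or double mutant replicate 1 or 2). The call of Gadd45b was lost (0.14 to 0.20, adjusted p of 0.105 to 0.285 without Srsf2 mutated replicate 1 or 2 or double mutant replicate 2 or 3). That of Irf1 was lost without Srsf2 mutated replicate 1 (0.19, adjusted p = 0.0537). The call of Cd83 was lost without double mutant replicate 1 or 3 (-0.34 to -0.30, adjusted p of 0.0803 to 0.109), and that of Nfkbia as given above (0.24 to 0.31, adjusted p of 0.0781 to 0.171). These comparisons share the Srsf2 mutated libraries, so the values stand side by side and are not independent.

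The double mutant against the libraries labelled Setd2 knockout shows the Srsf2 mutation on the other background. In it 31 of 34 members were called higher and 2 lower (Traf2 and Ikbke), where 26% of all tested genes were called higher and 25.8% lower, and the members' median was 1.69 beside 0.01. At 2-fold or more, 21 of 34 were called higher, against 15.1% of all tested genes. All 26 members called higher in Srsf2 mutated against wild type were called higher here, in libraries that the first comparison did not use. Both comparisons came from the same fit over all libraries, so they are not fully independent. The matching share among all genes called higher in the first comparison was not taken. Whether the repeat is particular to the members was therefore not tested. The greatest differences between the double mutant and the knockout label were those of Plaur (log2 fold 4.17 ± 0.131 SE, adjusted p = 3.46e-13) and Cd83 (log2 fold 4.02 ± 0.167 SE, adjusted p = 9.73e-12). Nfkbiz (log2 fold 3.76 ± 0.137 SE, adjusted p = 2.19e-12) and Map3k8 (log2 fold 3.42 ± 0.0979 SE, adjusted p = 1.09e-13) came next. The small calls of Nfkb1 and Cflar were lost without any of the 5 libraries of this comparison (0.10 to 0.19 and 0.11 to 0.23, adjusted p of 0.062 to 0.413 and 0.0722 to 0.484), and that of Tnfaip2 without the first library of the knockout label (0.23, adjusted p = 0.0817). The Y-linked RNA noted above separates these groups in the same way as it does Srsf2 mutated and wild type.

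**Figure D3:**
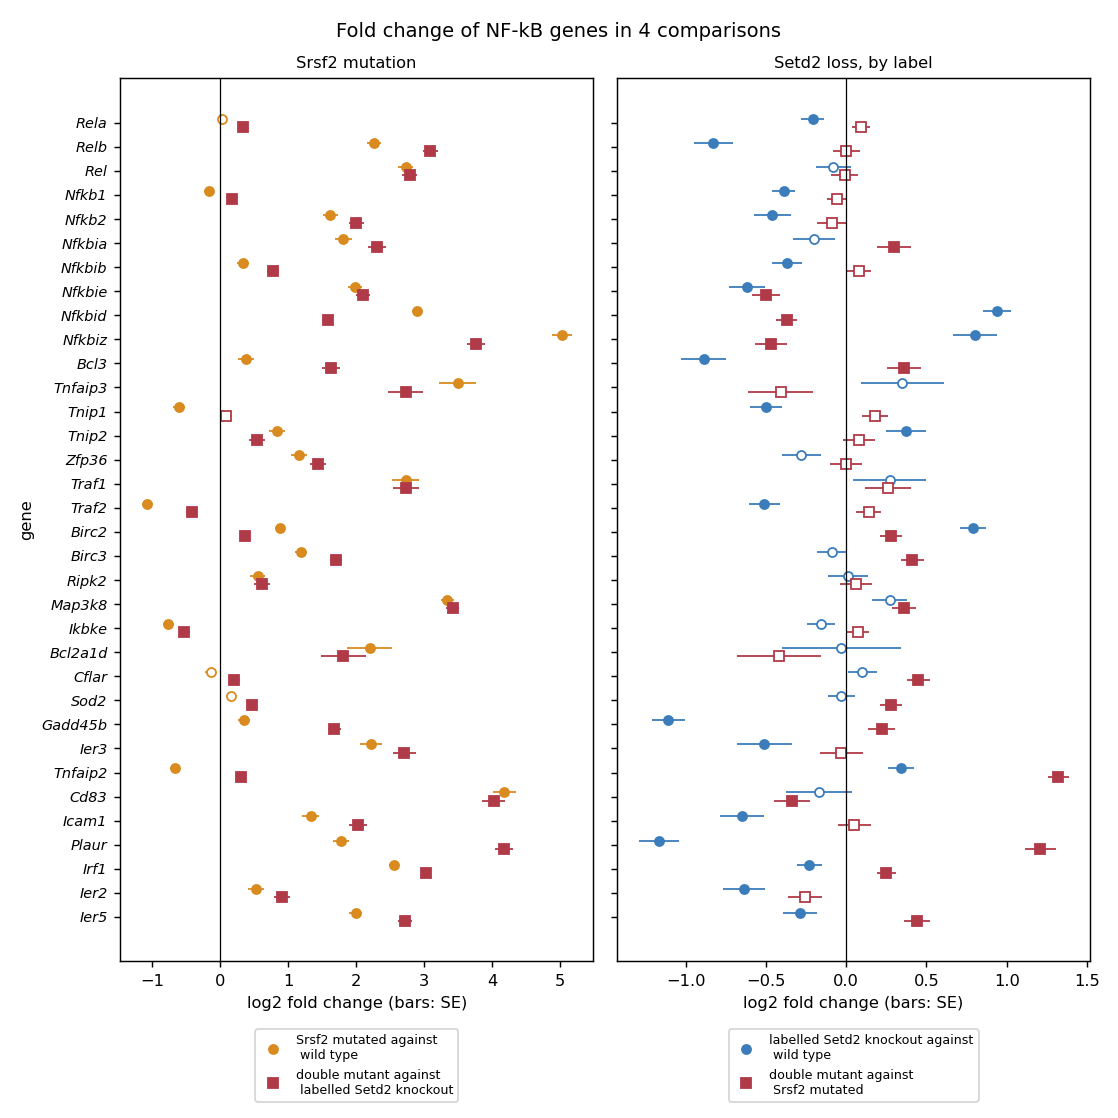
Log2 fold change (horizontal axes, bars are SE) of the 34 tested members in 2 comparisons of Srsf2 mutation (left) and 2 of the Setd2 label (right); filled symbols passed an adjusted p under 0.05 and open symbols did not. On the left 31 members of the double mutant comparison lie right of 0 with a filled symbol, and on the right Plaur and Gadd45b lie on opposite sides of 0 in the 2 comparisons.

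Without the Srsf2 mutation the libraries labelled Setd2 knockout had less RNA of many NF-kB genes than wild type. There, 16 of 34 members were called lower and 5 higher, where 19.9% of all tested genes were called lower and 18.7% higher, and the members' median was -0.20 beside 0.04. Of the 5 subunits 4 were called lower, and 2 without wild type replicate 2 or without the first library of the label. Relb (log2 fold -0.83 ± 0.122 SE, adjusted p = 6.41e-05) and Nfkb2 (log2 fold -0.46 ± 0.117 SE, adjusted p = 0.00543) fell most, ahead of Nfkb1 (log2 fold -0.39 ± 0.071 SE, adjusted p = 0.000416) and Rela (log2 fold -0.21 ± 0.0697 SE, adjusted p = 0.0271). The Rela call was lost without any one of the 4 libraries of this comparison (-0.23 to -0.18, adjusted p of 0.0559 to 0.214), and that of Nfkb2 without wild type replicate 2 or the first library of the knockout label (-0.41 to -0.38, adjusted p of 0.0585 to 0.0623). Irf1 behaved like Rela (-0.24 to -0.22, adjusted p of 0.0615 to 0.149). Of all members, Plaur (log2 fold -1.17 ± 0.125 SE, adjusted p = 2.73e-06), Gadd45b (log2 fold -1.11 ± 0.104 SE, adjusted p = 7.23e-07) and Bcl3 (log2 fold -0.89 ± 0.138 SE, adjusted p = 0.000113) fell furthest. The nuclear IkB genes Nfkbid (log2 fold 0.94 ± 0.0857 SE, adjusted p = 5.56e-07) and Nfkbiz (log2 fold 0.80 ± 0.137 SE, adjusted p = 0.000277) rose. So did Birc2 (log2 fold 0.79 ± 0.0836 SE, adjusted p = 2.69e-06), Tnip2 (log2 fold 0.37 ± 0.124 SE, adjusted p = 0.0277) and Tnfaip2 (log2 fold 0.34 ± 0.079 SE, adjusted p = 0.00309). The Tnip2 call was lost without wild type replicate 1 or the second library of the label (0.27 to 0.29, adjusted p of 0.176 to 0.217). The count of members called lower was 10 without the first library of that label, and with upper-quartile scaling it was 12, beside 6 higher. Over all genes that scaling moved the share of called genes that were higher from 48.4% to 59.5%. All 14 late neutrophil markers were called lower in this comparison, and their part in it was not tested. Xist RNA, noted above, also separates wild type from the knockout label, and what belongs to each cannot be told apart.

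The Setd2 label and the Srsf2 mutation did not add up on the log2 scale for many of these genes. The difference between the effect of the Setd2 label in Srsf2 mutated cells and that without the mutation, tested as an interaction in the same fit, was called positive for 17 of 34 members and negative for 3, where 16.7% of all tested genes were called positive and 15.2% negative. Its median over the members was 0.34 beside -0.07. Plaur had the greatest value (log2 difference 2.39 ± 0.158 SE, adjusted p = 1.52e-08). It was lower under the Setd2 label alone and higher in the double mutant. Gadd45b (log2 difference 1.34 ± 0.132 SE, adjusted p = 1.17e-06), Bcl3 (log2 difference 1.25 ± 0.174 SE, adjusted p = 4.4e-05) and Tnfaip2 (log2 difference 0.98 ± 0.102 SE, adjusted p = 2.1e-06) followed. The negative calls were those of Nfkbid (log2 difference -1.31 ± 0.108 SE, adjusted p = 1.61e-07), Nfkbiz (log2 difference -1.26 ± 0.171 SE, adjusted p = 3.22e-05) and Birc2 (log2 difference -0.51 ± 0.107 SE, adjusted p = 0.00168), each higher under the Setd2 label alone. Upper-quartile scaling lowered the median of all genes by 0.15 and gave 11 positive and 5 negative calls among the members. Among all called genes 37.6% were then positive in place of 52.4%. The small positive values of Rela, Cflar and Sod2 were not called with that scaling (0.15, 0.20 and 0.16, adjusted p of 0.225, 0.209 and 0.27). Leaving out 1 library ended the Sod2 call for 8 of the 10 libraries, all but Srsf2 mutated replicate 3 and double mutant replicate 2 (0.23 to 0.31, adjusted p of 0.0633 to 0.27). It ended that of Cflar for 7, all but wild type replicate 1 and Srsf2 mutated replicates 2 and 3 (0.26 to 0.37, adjusted p of 0.0528 to 0.235). For Rela it did so for 5, namely wild type replicate 1, either library of the knockout label, Srsf2 mutated replicate 1 and double mutant replicate 2 (0.23 to 0.28, adjusted p of 0.0534 to 0.2). With 1 library of the knockout label left out, whichever it was, 11 members were called positive. The late neutrophil markers gave 14 positive calls of 14, and their part was not tested. Wild type, which stands apart by its Xist RNA, enters the interaction. What belongs to the Setd2 label and what to Xist RNA or the sex of the mice cannot be told apart in it. Xist and Ddx3y do not give the sex behind the knockout label.

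The spread within a group was small for most members but not for all. Between the 2 wild type libraries 7 of 34 members differed at least 1.4-fold (Nfkbia, Nfkbiz, Tnfaip3, Zfp36, Ier3, Plaur and Ier2), while the median ratio over the 34 was 1.1. Wild type replicate 1 was the higher for 6 of these and the lower for Plaur. The same library was higher for the immediate early gene Fos, an early serum and stress response factor, at 784 against 441 CPM, and for Egr1 at 377 against 150 CPM. Without wild type replicate 1, the Tnfaip3 difference between the libraries labelled Setd2 knockout and wild type was 1.21 (adjusted p = 3.49e-07) in place of 0.35 (adjusted p = 0.301). The Nfkbia interaction without it was 0.16 (adjusted p = 0.275).

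Ier2 and Zfp36 were the leading members per length in wild type, at 237 ± 58.9 and 98.4 ± 26.1 FPKM (SD, n = 2), ahead of Nfkbia at 70.1 ± 21. The wide SDs of Zfp36 and Nfkbia come from the same libraries, in which both moved together. Replicate 1 was 1.45 and 1.53 times replicate 2 in CPM, so the overlap of the SDs does not decide their order. In Srsf2 mutated the order was Ier2 at 375 ± 43.1, Nfkbia at 270 ± 9.36, Zfp36 at 241 ± 11.9, Ier3 at 190 ± 13.6, Nfkbiz at 109 ± 7.9 and Tnfaip3 at 89.3 ± 7.85 FPKM (SD, n = 3). In the double mutant Nfkbia led at 311 ± 5.29 FPKM, followed by Ier2 at 292 ± 4.65, Zfp36 at 225 ± 3.6, Ier3 at 175 ± 2.94 and Plaur at 142 ± 2.39 FPKM (SD, n = 3). Traf1 and Bcl2a1b stood last in all 4 groups, with Traf1 at 0.813 ± 0.039 FPKM in Srsf2 mutated.

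The wider pathway did not move as a block. Over all tested genes 28.5% were called higher and 27.8% lower in Srsf2 mutated against wild type. In the double mutant against Srsf2 mutated these shares were 17.8% and 15.9%. The counts of the lists below stand beside these shares. Of 12 receptors that feed NF-kB, 3 were called higher and 6 lower in Srsf2 mutated than in wild type, with the higher calls including Tlr2, a sensor of bacterial lipoproteins (log2 fold 2.08 ± 0.0842 SE, adjusted p = 1.14e-11), and the B cell receptor for BAFF, Tnfrsf13c (log2 fold 2.18 ± 0.182 SE, adjusted p = 5.91e-08). TNF receptor 2, Tnfrsf1b, was lower (log2 fold -0.93 ± 0.0693 SE, adjusted p = 1.61e-08). Among 28 upstream adaptors and kinases, 10 were called higher and 10 lower, with Chuk, the gene of IKKa, higher (log2 fold 0.65 ± 0.0854 SE, adjusted p = 8.88e-06) and Traf3 (log2 fold -0.65 ± 0.0866 SE, adjusted p = 1.02e-05) and Ticam1 (log2 fold -1.05 ± 0.131 SE, adjusted p = 5.45e-06) lower. The medians of these lists were -0.10 and -0.04, and 2 genes, Tlr2 and Cd40, also stand among the inducible targets. In the double mutant against Srsf2 mutated, 5 receptors were called higher and 1 lower, with Tlr2 at 162 to 170 CPM against 73.8 to 79.2 CPM (log2 fold 1.11 ± 0.068 SE, adjusted p = 2.81e-09) and Tlr4 (log2 fold 0.93 ± 0.106 SE, adjusted p = 3.99e-06) and Tnfrsf1a (log2 fold 0.69 ± 0.0622 SE, adjusted p = 2.86e-07) also higher. There 10 of the 28 adaptors and kinases were called higher and 4 lower, led by Irak2 (log2 fold 1.08 ± 0.0843 SE, adjusted p = 4.9e-08).

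Inducible genes outside the members differed more. Of 31 other inducible NF-kB targets tested, 24 were called higher and 3 lower in Srsf2 mutated than in wild type, with a median log2 fold change of 3.13. Il6 was at 0.306 and 0.141 CPM in wild type and 1.23 and 1.33 CPM under the knockout label. Its level in Srsf2 mutated was 100, 92.98 and 114 CPM, and in the double mutant 38.6, 38.3 and 37.6 CPM. Socs3, which blocks STAT3 signalling, was at 7.55 and 6.19 CPM in wild type and 509, 534 and 554 in Srsf2 mutated (log2 fold 6.28 ± 0.111 SE, adjusted p = 2.57e-15), and the inflammasome gene Nlrp3 was at 4.47 and 4.66 and 233, 251 and 205 CPM (log2 fold 5.65 ± 0.109 SE, adjusted p = 3.52e-15). In the double mutant against Srsf2 mutated, 13 of the 31 were called higher and 7 lower, with Il1b at 49.5, 45.4 and 52.2 CPM in Srsf2 mutated and 214, 212 and 207 in the double mutant (log2 fold 2.11 ± 0.0786 SE, adjusted p = 9.14e-12). Cxcl10 (log2 fold 2.02 ± 0.112 SE, adjusted p = 8.55e-10) and Ccl2 (log2 fold 1.98 ± 0.118 SE, adjusted p = 2.01e-09) rose by a like size. Il6 differed from them by standing lower in the double mutant. Among 17 other brakes on NF-kB, 6 were called higher and 6 lower in Srsf2 mutated, with Zc3h12a, the gene of the RNase Regnase-1 (log2 fold 3.01 ± 0.0892 SE, adjusted p = 3.04e-13), and Socs1 (log2 fold 3.46 ± 0.118 SE, adjusted p = 1.66e-12) far higher and N4bp1 lower (log2 fold -0.83 ± 0.0764 SE, adjusted p = 1.99e-07).

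Immediate early genes, which cells switch on within minutes of many stimuli, were mostly higher in Srsf2 mutated than in wild type, as the members were. Of 20 measured, 18 were called higher and 1 lower there. In the double mutant against Srsf2 mutated 5 were called higher and 5 lower, beside 12 and 4 of the 34 members. Their summed level was 2181 to 3619 CPM in wild type and 2687 to 2790 CPM under the knockout label. It was 9726 to 9940 CPM in Srsf2 mutated and 7990 to 8051 CPM in the double mutant. Fosb was at 172 and 84.6 CPM in wild type and 358 and 367 CPM under the knockout label. With the Srsf2 mutation it measured 2579, 2680 and 2324 CPM, and in the double mutant 1347, 1337 and 1350 CPM. Of 12 heat shock genes, 8 were called higher and 1 lower in Srsf2 mutated, with Hspa1a at 2.26 and 2.59 CPM in wild type and 147, 136 and 146 in Srsf2 mutated. Their summed level, 8476 to 9553 CPM in wild type and 9392 to 10296 in Srsf2 mutated, differed little. The part of these genes' response in the levels of Nfkbia, Nfkbiz, Tnfaip3, Zfp36 and Ier2 was not tested.

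**Figure D4:**
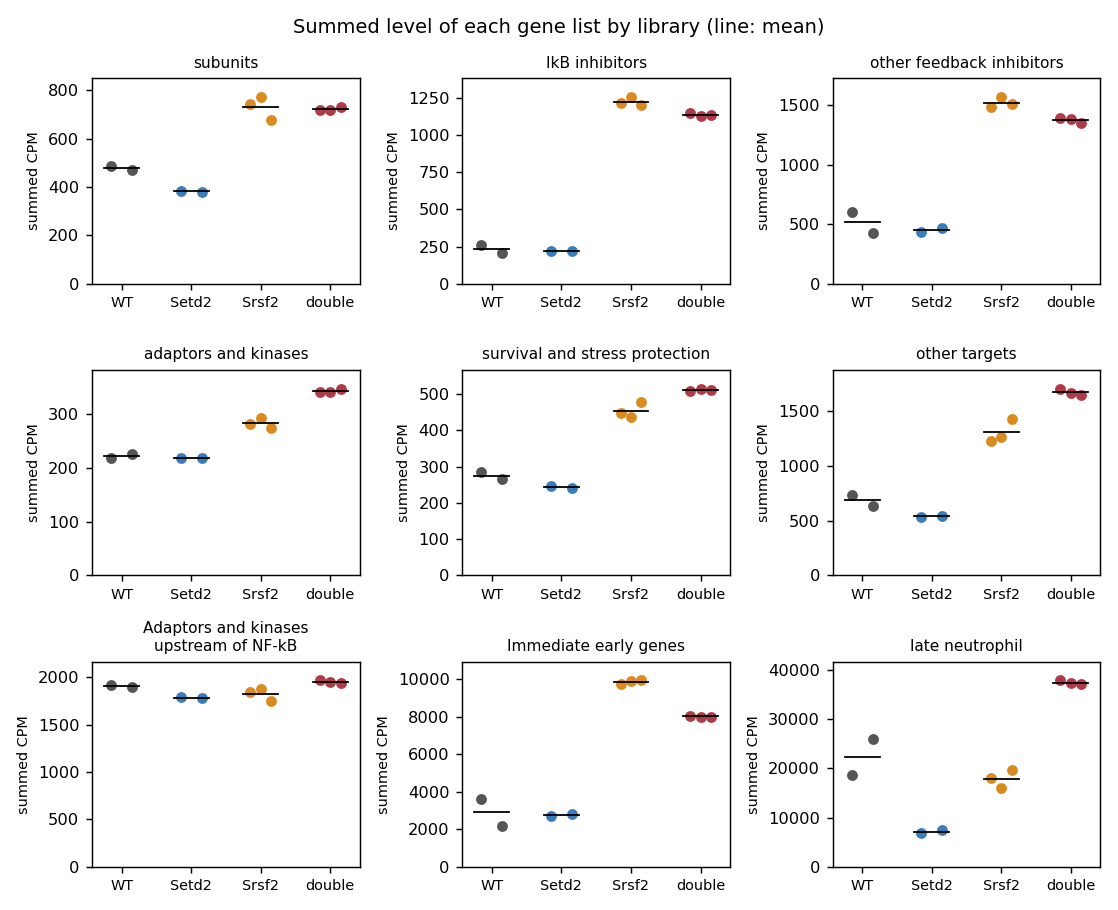
Summed CPM (vertical axes, starting at 0) of each role of the members and of 3 other gene lists in every library of wild type (WT), labelled Setd2 knockout (Setd2), Srsf2 mutated (Srsf2) and double mutant (double); points are libraries and lines are means. The sums of the IkB inhibitors and the immediate early genes stand high in Srsf2 mutated and slightly lower in the double mutant, the upstream adaptors and kinases keep to 1750 to 1968 CPM in all libraries, and the late neutrophil markers peak in the double mutant. Of the 6 IkB inhibitors, 2 were called higher and 3 lower in the double mutant than in Srsf2 mutated.

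The 12 members with a consensus match in their promoter window and the 15 tested members without one were set side by side as a description. In Srsf2 mutated against wild type, 9 of the 12 were called higher and 2 lower, with a median log2 fold change of 1.90. Of the 15 without a match, 11 were called higher and 2 lower, with a median of 0.88. Rises of similar size occurred without a match in the window, as for Traf1 and Plaur, while Tnfaip2, which had a match, was lower in Srsf2 mutated. The window holds only these 300 bases and not enhancers, so the absence of a match says nothing about the factor.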

How the data were processed

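RNA-seq of 10 bulk libraries was analysed, and the 3 single-cell samples were not analysed here. Per the file headers, the 3 deposited tables give whole-number read counts per gene and library, which were tested as deposited, and FPKM, which equals the count over listed gene length and library total and was used only to compare genes. Per the submitters' processing notes the tools include the aligners HISAT2 2.0.5 and STAR 2.6.1a, the counters HTSeq 0.9.1 and featureCounts 2.0.1, and SAMtools 1.7, Seurat 3.2.0 and DESeq2 1.22.2, and the builds mm10, GRCm38, GRCh38 and hg38, without roles. The strandedness, the strain and the sex are not given in the sources used here. The 5 columns shared by 2 tables were identical, and 0 sample columns were left unassigned.

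Genes with a count of at least 10 in enough libraries (filterByExpr) were kept, 19289 in all. Counts were scaled by TMM and fitted with the quasi-likelihood test of edgeR 4.0.16 (R 4.3.3) in 1 model of all 10 libraries with a term per genotype. The 5 contrasts tested were the 4 pairwise ones described and their interaction, each adjusted by Benjamini-Hochberg over all tested genes. The procedure was tested on simulated data in which few genes changed, and only in Srsf2 mutated against wild type. Far more genes were called in the real libraries, so the simulation does not test the scaling in that setting. Intervals are 95% intervals of the fit. The alternatives were median-of-ratios and upper-quartile scaling, no filter, a stricter filter (mean of at least 1 CPM), DESeq2 1.42.0, a replicate block, fits of only the 2 groups compared, and each library left out. Exon overlaps were computed from GENCODE M21 (GRCm38), whose exon length equals the listed length for 34 of 35 members.

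All 35 members are named. Of every other list at most the 3 genes of smallest adjusted p in Srsf2 mutated against wild type and in double mutant against Srsf2 mutated were eligible to be named with values. Setd2, Srsf2, Xist and Ddx3y served as label checks, while Fos and Egr1 were chosen after their values were seen. The members and the gene lists were chosen with earlier results of these data known, so counts over them are descriptions. Counting error is small for most members at these depths, and the number of libraries limits the precision. It is not small for genes with few reads, such as Bcl2a1d (27 and 37 counts in wild type) and Traf1 (38 and 51).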

Additional observations from a re-analysis of the deposited data

Results flagged for a closer look

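The interaction was called for 20 of the 34 tested NF-kB genes, by a test of the difference between the effects of the Setd2 label with and without the Srsf2 mutation. It was positive for 17 and negative for 3, where 16.7% of all tested genes were called positive and 15.2% negative. With upper-quartile scaling 11 members were called positive and 5 negative. Xist RNA separates wild type from every other group and so enters the interaction. What belongs to the Setd2 label and what to Xist RNA or the sex of the mice cannot be told apart in it. Xist and Ddx3y do not give the sex behind the knockout label. Each value here is the log2 effect in Srsf2 mutated cells minus that without the mutation. For targets it was 2.39 for Plaur, 0.98 for Tnfaip2, 0.73 for Ier5, 0.70 for Icam1 and 0.48 for Irf1. In the survival group it was 1.34 for Gadd45b, 0.35 for Cflar and 0.31 for Sod2. The IkB genes gave 1.25 for Bcl3, 0.50 for Nfkbia, 0.45 for Nfkbib, -1.31 for Nfkbid and -1.26 for Nfkbiz. Among subunits it was 0.83 for Relb, 0.34 for Nfkb1 and 0.30 for Rela. Adaptors and the A20 partner gave 0.68 for Tnip1, 0.65 for Traf2, 0.50 for Birc3 and -0.51 for Birc2. Of these 20, the calls of Rela, Nfkb1, Nfkbia, Nfkbib, Cflar and Sod2 were lost under at least 1 alternative, and the libraries labelled Setd2 knockout enter every value. Without either of those libraries, the values of Nfkb1 (0.28 to 0.30, adjusted p of 0.0872 to 0.105) and Nfkbib (0.38 to 0.42, adjusted p of 0.0569 to 0.0903) were not called.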

How the results depend on the processing

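No called member changed its direction under any alternative run. At least 1 alternative ended the call of 7 of 21 members in the libraries labelled Setd2 knockout against wild type, 2 of 31 in Srsf2 mutated against wild type (Nfkb1 and Bcl3), 5 of 16 in the double mutant against Srsf2 mutated, 3 of 33 in the double mutant against the knockout label and 6 of 20 in the interaction. In the same order, at least 1 alternative added a call to 4 of 13, 1 of 3 (Sod2), 5 of 18, 0 of 1 and 6 of 14 members not called. With upper-quartile scaling the positive interaction calls numbered 11 and the negative ones 5, in place of 17 and 3. Leaving out 1 library at a time gave 10 to 15 members called lower under the knockout label, lowest without its first library, and 11 to 19 positive interaction calls, lowest without either library of that label. All other counts of called members, over all members together, stayed within 1.5 times the reported ones. The counts at 2-fold or more were 18 to 19 in Srsf2 mutated against wild type and 21 in the double mutant against the knockout label under all 12 alternatives of each. By role, in Srsf2 mutated against wild type only the count of subunits called lower, 1 in the reported fit, moved by more than that, to 0 under 8 alternatives. The 4 subunits called lower under the knockout label became 2 without wild type replicate 2 or the first library of that label, and the 0 subunits called between the double mutant and Srsf2 mutated became 1 without Srsf2 mutated replicate 3. Where 1 library of a pair was left out, the lone sample was taken to vary like the other groups.

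A replicate block changed few results: Nfkb1 in Srsf2 mutated against wild type was no longer called (-0.16, adjusted p = 0.0603), and the Nfkb2 interaction was (0.39, adjusted p = 0.0252), with no other call of a member changed. Deviations of libraries with the same number correlated at 0.053, 0.025 and 0.072 between Srsf2 mutated and the double mutant. Between wild type and the knockout label the value was 0.291, and -0.291 for unlike numbers. With 2 libraries in each of these groups the deviations mirror each other, so that value cannot settle the pairing. Unlike numbers reached 0.353, between replicate 2 of the knockout label and Srsf2 mutated replicate 3. The numbers were not taken to pair the libraries.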
